A study of Mus musculus with 18 samples.

Results

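The 37 genes described here encode the membrane proteins, digestive enzymes and proton pump of the lysosome, the conjugation and cargo proteins of autophagy, and the transcription factors TFEB, TFE3 and MITF. They are taken by name, as genes of this pathway, and all 37 were found among the 54279 rows of each of the 2 deposited tables. By role they are 3 transcription factors, 6 membrane proteins, 6 proteases, 11 other hydrolases, 2 lumen cofactors, 3 proton pump proteins and 6 autophagy proteins. RNA was sequenced from mouse OPCs in culture, oligodendrocyte progenitor cells that divide and give rise to the makers of myelin, which had been derived from epiblast stem cells and grown with Fgf2 and Pdgfa. Control cells are labelled CRISPR-Control and Vhl cells CRISPR-Vhl, so the controls are CRISPR cells too. Control and Vhl cells were lysed without drug in the untreated experiment, and after 14 hours in medium with DMSO or with 300 nM AZD8330, which blocks the kinases MEK1 and MEK2, in the drug experiment. Each of the 6 groups holds 3 libraries, lettered A to C, which gives 18 libraries. No source used here says whether the letters stand for separate cultures, whether the edited cells were a clone or a pool, or where Vhl was cut. P-values therefore measure the spread between these libraries, which may be technical.

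Lysosomes are acidic organelles in which proteases, glycosidases and lipases break down material that arrives by endocytosis or by autophagy. TFEB, TFE3 and MITF are related transcription factors that bind short palindromic sites, the CLEAR sites, in front of many lysosomal and autophagy genes. They are held in the cytoplasm by phosphorylation, chiefly by mTORC1 at the lysosome surface, and TFEB is also known as a substrate of ERK, the kinase that MEK activates. In the oligodendrocyte lineage TFEB is known as a brake on myelination. VHL is the protein through which hypoxia-inducible factor (HIF) is marked and destroyed when oxygen is present, and HIF target genes include regulators of mitophagy.

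Promoter stretches of 6 members are shown because they carry the letters these factors are known to read, and because the members differ in how they responded. The letters come from RefSeq (build GRCm38.p6), from windows of 250 bases before to 50 bases after a start site, and are written 5′ to 3′ on the gene's strand. Capitals mark CACGTG (the E-box) or, where present, TCACGTGA (the core of the CLEAR site), which contains CACGTG.
Lamp1, plus strand, chr8:13159080-13159160: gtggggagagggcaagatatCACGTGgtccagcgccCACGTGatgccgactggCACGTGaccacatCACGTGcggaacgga
Gla, minus strand, chrX:134601178-134601253: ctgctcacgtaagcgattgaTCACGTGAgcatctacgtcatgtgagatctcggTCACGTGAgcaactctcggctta
Ctsl, minus strand, chr13:64370739-64370766: cgttagaagcCACGTGctgatctaaatt
Ctsd, minus strand, chr7:142387909-142387936: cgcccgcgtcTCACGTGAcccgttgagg
Ctsa, plus strand, chr2:164833745-164833772: acaatgagcaaactgTCACGTGAtgcag
Mcoln1, plus strand, chr8:3500463-3500490: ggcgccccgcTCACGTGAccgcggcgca
The Lamp1 stretch ends at the base before the start site and holds 4 E-boxes. The Gla stretch holds 2 CLEAR cores. In the other 4 stretches, each of 28 bases, the motif stands once, and these stretches overlap an exon of their own gene in the GENCODE M21 annotation. Outside the stretch shown, the Ctsa window holds a further CLEAR core that begins at position 5, past the start site.

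A promoter window was found for 32 of the 37 members. TCACGTGA stood in the windows of 5 of these 32 (15.6%), which are Atp6v0d1, Ctsa, Ctsd, Gla and Mcoln1, against 1.12% of all 27025 genes with a window and 2.14% of the 9842 such genes tested in the drug experiment. CACGTG, which the first count includes, stood in 11 of 32 (34.4%), against 8.09% and 11.6%. ACGTG, a form of the core that HIF is known to read, lies inside both other motifs and stood in 15 of 32 (46.9%), against 21.8% and 29.2%. Another form of that core, GCGTG, was not searched. CLEAR sites are known in front of many lysosomal genes, and the members were taken as genes of this pathway. The higher shares of TCACGTGA, and of the 2 motifs inside it, were thus partly set by that choice. They are no independent result about the members. All 3 motifs were searched on both strands, and a match is a description of the letters and not a binding site. The windows of Wipi1, Scarb2, Psap and Gabarapl1 held none of the 3 motifs. The windows of Wipi1 and Scarb2, both on the minus strand, lie inside the gene as annotated in GENCODE M21. They end at 109611639 and 92505907, and the genes at 109611967 and 92506833. Bases before the annotated 5′ end of these 2 genes were therefore not searched.

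The tables hold estimated counts, with library totals between 14594148 and 21160250 in the untreated experiment and between 12391077 and 16349676 in the drug experiment. Levels are given in CPM, counts scaled to a common library size, as the 3 libraries A, B and C or as mean ± SD (n = 3). CPM is not divided by gene length, so levels are compared between groups and never between genes. Log2 changes carry their standard error, and "rose" or "fell" is used only where edgeR's quasi-likelihood test gave an adjusted p under 0.05 over all tested genes. Tests covered 36 of the 37 members among 13569 genes in the untreated experiment (all but Gusb) and 34 among 13460 genes in the drug experiment (all but Ctsz, Gusb and Sgsh). A member had to average at least 1 CPM to be tested. How transcripts were combined to genes is not known, so a low count does not show that a gene was barely expressed. Vhl mRNA stood at 117, 121 and 125 CPM in untreated control and 87.3, 90.2 and 74.1 CPM in untreated Vhl libraries, at 109, 107 and 102 and 90.0, 93.2 and 94.1 CPM in DMSO, and at 139.8, 137 and 138 and 104, 105 and 92.0 CPM in AZD8330. It was lower in Vhl cells in each setting without overlap, but was still well counted, and an mRNA level does not show whether the protein was lost. The log2 difference was −0.53 ± 0.16 between untreated Vhl and control cells (adjusted p = 0.357), −0.20 ± 0.05 in DMSO (adjusted p = 0.00777) and −0.46 ± 0.05 in AZD8330 (adjusted p = 1.01e-05). OPC markers (Pdgfra, Cspg4, Olig2, Sox10 and 6 more) summed to between 8110 and 13300 CPM in each library. The 12 markers of microglia and macrophages, cells rich in lysosomes, summed to at most 4 CPM in any library, no single gene among them passed 1.02 CPM, and 1 to 5 of the 12 had 0 counts in every library of a group.

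Most of the well-counted lysosomal genes rose under the MEK inhibitor in control OPCs. Of 34 tested members, 20 rose and 1 fell with AZD8330 against DMSO, where 29.1% of all tested genes rose and 31.7% fell. The members' median change was 0.53 on the log2 scale against −0.01 over all tested genes, and 29 of 34 changes were positive. In Vhl cells 21 members rose and 3 fell, where 25.8% of all tested genes rose and 25.6% fell, with a median of 0.42 against 0.03 over all genes. The direction was shared: 18 members rose in both genotypes and Cd63 fell in both. Tfe3 and Sqstm1 rose in control cells and did not pass in Vhl cells, and the difference of their drug effects did not pass either (adjusted p = 0.222 and 0.0587). Both genotypes gave 20 to 22 rises of members when libraries were scaled by total counts or by DESeq2's size factors in place of TMM. Summed over the 37 members, levels were between 4759 and 4853 CPM in the control DMSO libraries and between 7141 and 7202 CPM in the control AZD8330 libraries. In Vhl cells the sums were between 4701 and 4793 CPM in DMSO and between 6186 and 6524 CPM in AZD8330.

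Standard errors were wider for members with fewer counts. Of the 22 members that averaged at least 20 CPM over the 12 libraries, 18 rose, 1 fell and 3 did not pass in control cells, where 32% of the 7035 genes at that level rose. In Vhl cells 19 of those 22 rose and 1 fell, where 30.6% of the genes at that level rose. Of the 12 tested members under 20 CPM, 2 rose in control cells and 2 rose and 2 fell in Vhl cells. Over all tested genes, of any level, 29.1% rose in control cells, and 25.8% rose and 25.6% fell in Vhl cells. Against those shares the counts of the lower class do not stand out. The median standard error was 0.05 in the upper class and 0.29 in the lower, so a change of the size seen in the upper class was often not detectable in the lower.

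Other cell features moved with the drug in the same libraries. The 16 genes listed as output of the MEK and ERK kinases summed to 2170 to 2230 CPM in control DMSO libraries and 556 to 573 CPM under AZD8330, and to 2430 to 2490 and 782 to 818 CPM in Vhl cells. Of 14 tested genes of that list 11 fell and 2 rose in control cells, where 31.7% of all tested genes fell and 29.1% rose. In Vhl cells 9 fell and 2 rose, where 25.6% of all tested genes fell and 25.8% rose. Dusp6, a phosphatase that feeds back on ERK, fell by 4.31 ± 0.05 on the log2 scale in control cells (adjusted p = 1.34e-14). The 6 astrocyte markers summed to 855 to 871 CPM in control DMSO libraries and 1820 to 1920 CPM under AZD8330, and to 974 to 1050 and 1520 to 1630 CPM in Vhl cells. Gfap, Aqp4, Gja1, Aldh1l1 and Aldoc rose in both genotypes, and Slc1a3 did not pass. Oligodendrocyte markers summed to 15.3 to 17.4 CPM in control DMSO libraries and 62 to 66.3 CPM under AZD8330, and to 9.26 to 16.4 and 27.5 to 31.1 CPM in Vhl cells. A single gene reached 47.6 CPM in control AZD8330. Of 5 tested oligodendrocyte markers 2 rose in control cells and 1 in Vhl cells, and 0 fell. Of 10 OPC markers 6 rose and 3 fell in control cells, and 5 rose and 2 fell in Vhl cells. Neuronal markers summed to 166 to 174 CPM in control DMSO libraries and 377 to 389 CPM under AZD8330, and to 361 to 371 and 565 to 592 CPM in Vhl cells. The part of these markers in the lysosomal changes was not tested, and in bulk RNA fewer cells of a type cannot be told apart from less RNA per cell.

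**Figure D1:**
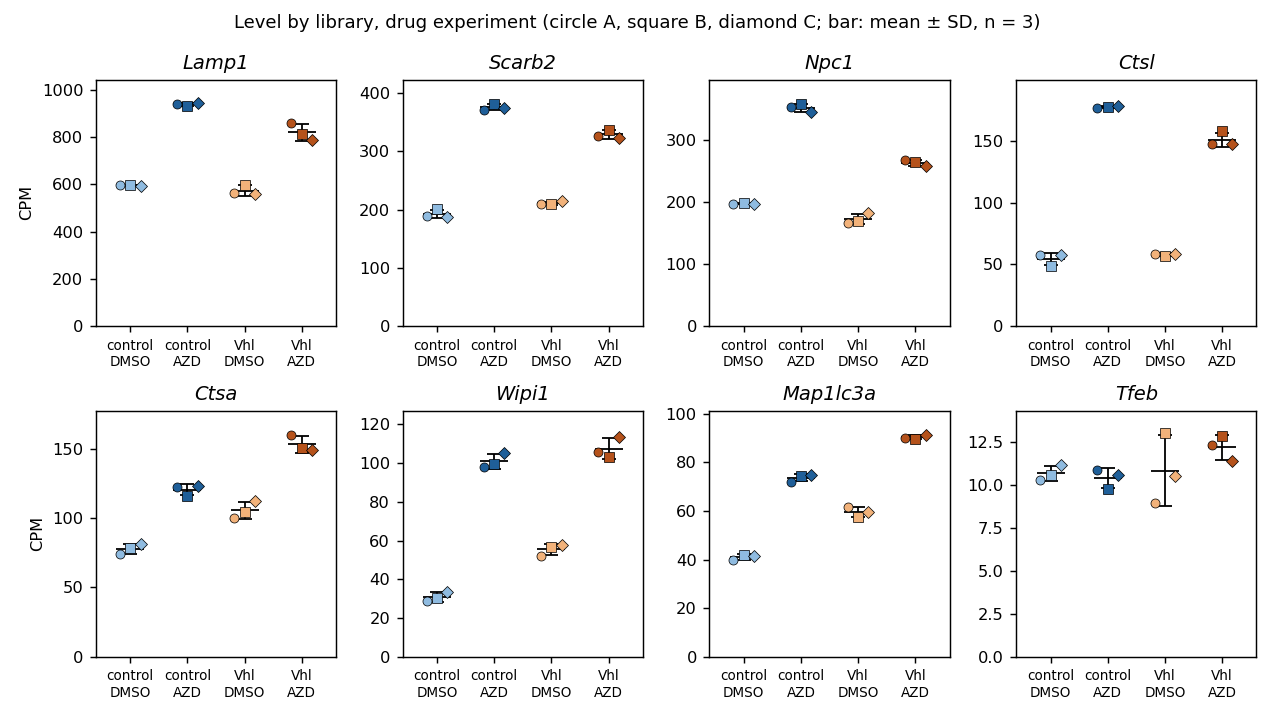
CPM of 8 members in the 12 libraries of the drug experiment, 1 panel a gene, with a marker for each library, a horizontal bar for the mean and whiskers for the SD (n = 3). Lamp1, Scarb2, Npc1, Ctsl, Ctsa, Wipi1 and Map1lc3a lay higher in all AZD8330 libraries than in the DMSO libraries of the same genotype, and Tfeb stayed between 8.94 and 13.1 CPM in all 12.

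The mRNAs of the 3 transcription factors changed little or were measured too thinly. Tfeb stood at 10.3, 10.6 and 11.2 CPM in control DMSO libraries A to C, against 10.9, 9.74 and 10.6 CPM under AZD8330, a log2 difference of −0.04 ± 0.14 with a 95% interval of −0.31 to 0.23. Its Vhl libraries held 8.94, 13.1 and 10.5 CPM in DMSO and 12.3, 12.8 and 11.4 CPM in AZD8330 (0.17 ± 0.14, interval −0.11 to 0.44). Within each genotype the DMSO and AZD8330 libraries of Tfeb overlapped, and Vhl AZD8330 lay above control AZD8330 without passing the test (adjusted p = 0.254). Tfe3, a close relative of Tfeb with broad expression, stood at 48.8, 47.5 and 53.9 CPM in control DMSO and 60.4, 68.4 and 63.5 CPM in control AZD8330. It rose by 0.36 ± 0.08 in control cells (adjusted p = 0.00258) and did not pass in Vhl cells (0.11 ± 0.09, adjusted p = 0.319). The difference between those drug effects was itself not significant (−0.25 ± 0.12, adjusted p = 0.222). Mitf, best known as the regulator of pigment cells, lay between 0.382 and 2.19 CPM in the 12 libraries and passed in no comparison. The protein and its place in the cell, where these factors are known to be regulated, were not measured.

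Among membrane proteins 4 of 6 rose and Cd63 fell in each genotype. Scarb2, the receptor that carries glucocerebrosidase to the lysosome, stood at 189, 201 and 187 CPM in control DMSO and 372, 382 and 376 CPM in control AZD8330, a rise of 0.97 ± 0.03 on the log2 scale (adjusted p = 4.89e-11). In Vhl cells Scarb2 went from 210.4, 209 and 214 CPM to 327, 338 and 324 CPM (log2 0.64 ± 0.03, adjusted p = 3.63e-09). Every AZD8330 library lay above every DMSO library, and under AZD8330 the Vhl libraries lay below the control libraries. Npc1, which moves cholesterol out of the lysosome, stood at 197, 198 and 197 CPM in control DMSO and 353, 357 and 345 CPM in control AZD8330 (log2 0.84 ± 0.03, adjusted p = 2.52e-10). In Vhl cells Npc1 stood at 166, 169.9 and 181 CPM in DMSO and 267, 264 and 258 CPM in AZD8330 (log2 0.61 ± 0.03). Its 4 groups did not overlap, with the Vhl group below the control group in each medium.

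Lamp1 and Lamp2 are the main glycoproteins of the lysosomal membrane. Lamp1 (chromosome 8, 13159161 to 13175338, plus strand, GENCODE M21 on GRCm38), whose 4 E-boxes are shown above, stood at 599, 599 and 594 CPM in control DMSO and 943, 934 and 947 CPM in control AZD8330, a 1.58-fold rise (adjusted p = 3.58e-09). Its Vhl libraries held 563, 599 and 562 CPM in DMSO and 861, 813 and 789.5 CPM in AZD8330, a 1.43-fold rise (adjusted p = 6.24e-08). Lamp2 went from 148 ± 13.0 to 257 ± 6.94 CPM in control cells (log2 0.79 ± 0.06) and from 135 ± 2.32 to 199 ± 14.8 CPM in Vhl cells (log2 0.56 ± 0.06), and both passed. Cd63, a tetraspanin of late endosomes and of secreted vesicles, went the other way. It stood at 518, 530.2 and 507 CPM in control DMSO, 434, 418 and 450.4 in control AZD8330, 439, 431 and 417 in Vhl DMSO and 346, 324 and 306 in Vhl AZD8330. Cd63 fell by 0.26 ± 0.04 with the drug in control cells (adjusted p = 0.000211) and by 0.40 ± 0.04 in Vhl cells (adjusted p = 6.35e-06). Of its transcript sequence, cut into words of 31 bases, 15.9% also stands in other genes, chiefly Cd63-ps, which held 0 to 2 counts. Mcoln1, the calcium channel of the lysosome with a CLEAR core in its window, lay between 4.01 and 9.05 CPM and did not pass (0.06 ± 0.27 and −0.22 ± 0.27).

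All 5 tested proteases rose in both genotypes. Ctsl, a cysteine protease (chromosome 13, 64359337 to 64370890, minus strand), stood at 57.4, 48.8 and 57.5 CPM in control DMSO and 177, 178 and 179 CPM in control AZD8330, a 3.26-fold rise (log2 1.70 ± 0.06, adjusted p = 3.84e-11). In Vhl cells Ctsl went from 58.4, 56.4 and 58.2 CPM to 148, 158 and 147 CPM, a 2.62-fold rise (log2 1.39 ± 0.06, adjusted p = 3.99e-10). Every AZD8330 library held more than any DMSO library, and the DMSO groups of the 2 genotypes overlapped. 25.8% of the Ctsl words also stand in Gm47123, which held at most 10 counts, so a split of reads with it is possible. Ctsb, another cysteine protease, went from 304, 327 and 321 to 532, 555 and 544 CPM in control cells and from 279, 283 and 294 to 467, 456 and 426 CPM in Vhl cells. Its rises were log2 0.78 ± 0.04 (adjusted p = 2.9e-09) and 0.66 ± 0.04 (adjusted p = 2.55e-08). Ctsb shares 12.4% of its words with Fdft1, which is expressed (2086 to 3654 counts), so its level is less certain.

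Ctsd, the aspartic protease with a CLEAR core in its window, stood at 412, 405 and 419 CPM in control DMSO and 591, 609.7 and 597 CPM in control AZD8330, with 386, 406 and 396 and 576, 551 and 524 CPM in Vhl cells. It rose 1.46-fold in control cells (adjusted p = 2.67e-08) and 1.39-fold in Vhl cells (adjusted p = 1.54e-07). 33.2% of its words also stand in Gm49369, which held at most 35 counts. Ctsa, the carboxypeptidase that protects Neu1 and Glb1 in a complex, stood at 73.8, 78.2 and 80.9 CPM in control DMSO, 122, 116 and 123 in control AZD8330, a mean of 106 ± 6.10 in Vhl DMSO and 159.9, 150.2 and 149 in Vhl AZD8330. Its drug effect was log2 0.63 ± 0.05 in control cells and 0.54 ± 0.05 in Vhl cells, and its 4 groups did not overlap. Of the Ctsa words 14.6% also stand in other genes, 7.67% of them in Pltp. Pltp held 6 to 212 counts in the drug experiment, where Ctsa held 1131 to 2313, and how reads were shared was not tested. Tpp1, a tripeptidyl peptidase, went from 140.4 ± 4.55 to 209.7 ± 6.20 CPM in control cells (log2 0.58 ± 0.04) and from 133 ± 2.73 to 174 ± 5.49 CPM in Vhl cells (log2 0.39 ± 0.04). Ctsz, another carboxypeptidase, had at most 1.02 CPM in any library of the drug experiment and was not tested there.

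Of the other hydrolases, which split sugars, lipids and glycogen, 2 of 9 tested rose in control cells, Hexa and Neu1, and 7 did not pass. Neu1, the lysosomal sialidase, stood at 18.7, 20.6 and 21.5 CPM in control DMSO and 29.6, 29.7 and 34.1 CPM in control AZD8330 (log2 0.62 ± 0.10, adjusted p = 0.000191), and at 19.8, 23.1 and 25.0 and 33.8, 29.2 and 29.0 CPM in Vhl cells (log2 0.44 ± 0.10). Hexa, a subunit of the enzyme that degrades ganglioside GM2, went from 66.0 ± 1.57 to 79.0 ± 3.24 CPM (log2 0.26 ± 0.04) and, in Vhl cells, from 64.2 ± 1.61 to 74.2 ± 1.32 CPM (log2 0.21 ± 0.04). Of the Hexa words 11.4% also stand in Tmem202, which held at most 9 counts in the drug experiment. In Vhl cells Naglu and Gaa rose as well, and Gla and Glb1 fell. Naglu, an enzyme of heparan sulfate breakdown, stood at 29.9, 30.7 and 30.9 CPM in Vhl DMSO and 36.0, 39.5 and 37.7 CPM in Vhl AZD8330 (log2 0.31 ± 0.08, adjusted p = 0.00489), and Gaa, which degrades glycogen, at 125, 106 and 119 and 142, 144 and 120.2 CPM (log2 0.21 ± 0.08, adjusted p = 0.0389). Gaa's groups overlapped, and its call ended without Vhl AZD8330 library A or B or Vhl DMSO library B or C, with DESeq2's size factors and when only the groups compared were fitted. Naglu did not pass without Vhl AZD8330 library B (log2 0.22).

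Gla, an alpha-galactosidase with 2 CLEAR cores in its window, stood at 14.6, 16.2 and 16.96 CPM in control DMSO and 14.7, 14.4 and 15.96 CPM in control AZD8330 (−0.08 ± 0.12, adjusted p = 0.551). In Vhl cells Gla levels were 12.2, 14.6 and 14.5 CPM in DMSO and 12.2, 10.03 and 10.5 CPM in AZD8330, and Gla fell by 0.34 ± 0.12 (adjusted p = 0.0302). Glb1, a beta-galactosidase, held 7.90, 9.29 and 8.85 CPM in Vhl DMSO and 4.42, 5.97 and 5.40 CPM in Vhl AZD8330 libraries and fell by 0.72 ± 0.25 (adjusted p = 0.0305). The groups of both genes did not overlap, for Gla by a margin within rounding, and the Gla call ended without any 1 of Vhl DMSO B or C or Vhl AZD8330 B or C, without the filter on low counts and when only the groups compared were fitted. The Glb1 call ended without Vhl DMSO B or C or Vhl AZD8330 A. Ppt1, Asah1 and Lipa, which act on fatty acyl groups, ceramide and cholesteryl esters, lay between 0 and 8.09 CPM in the drug experiment, and none passed. Sgsh and Gusb were under the 1 CPM average, with at most 41 counts of Sgsh in a library.

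Both lumen cofactors rose. Psap, the precursor of the saposins that help enzymes to reach sphingolipids (chromosome 10, 60277627 to 60302597, plus strand), stood at 1254, 1278 and 1325 CPM in control DMSO and 1960.0, 1965 and 1910.0 CPM in control AZD8330 (log2 0.60 ± 0.03, adjusted p = 6.91e-10). Its Vhl libraries held 1292, 1296 and 1298 CPM in DMSO and 1717, 1776 and 1722 CPM in AZD8330 (log2 0.42 ± 0.03, adjusted p = 3.02e-08). The DMSO groups overlapped, and every Vhl AZD8330 library lay below every control AZD8330 library. Npc2, the soluble partner of Npc1, went from 178 ± 2.63 to 254.8 ± 2.03 CPM in control cells (log2 0.52 ± 0.05) and from 182 ± 10.3 to 242 ± 13.9 CPM in Vhl cells (log2 0.41 ± 0.05).

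Of the 3 proton pump proteins, 1 passed with the drug. Atp6v0d1, a subunit of the membrane part of the V-ATPase with a CLEAR core that begins 4 bases before its start site, stood at 120.0, 124 and 120.3 CPM in control DMSO and 168, 183 and 172 CPM in control AZD8330 (log2 0.52 ± 0.04, adjusted p = 3.43e-07). In Vhl cells it went from 125 ± 6 to 169 ± 4.96 CPM (log2 0.44 ± 0.04). Atp6v1h, a subunit of the cytosolic part, changed by 0.10 ± 0.16 and 0.15 ± 0.16, and the accessory protein Atp6ap1 by 0.53 ± 0.24 and 0.18 ± 0.23, and none of these passed.

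Of the 6 autophagy genes 5 rose in each genotype, and Wipi1 rose as steeply as Ctsl in control cells. Wipi1, which binds the lipid PI3P on forming autophagosomes (chromosome 11, 109573331 to 109611967, minus strand), stood at 28.8, 30.2 and 33.7 CPM in control DMSO and 97.8, 99.6 and 106 CPM in control AZD8330, a 3.27-fold rise (log2 1.71 ± 0.07, adjusted p = 1.63e-10). In Vhl cells Wipi1 started higher, at 52.0, 56.8 and 57.5 CPM, and reached 106, 103 and 114 CPM, a 1.94-fold rise (log2 0.95 ± 0.06, adjusted p = 4.56e-08). The AZD8330 groups of the 2 genotypes overlapped and the DMSO groups did not. Map1lc3a, an LC3 protein that is attached to the autophagosome membrane, stood at 39.7, 41.9 and 41.4 CPM in control DMSO, 72.0, 74.2 and 74.6 in control AZD8330, 61.5, 57.4 and 59.4 in Vhl DMSO and 90.2, 89.5 and 91.2 in Vhl AZD8330. Its drug effect was 0.85 ± 0.04 in control cells and 0.60 ± 0.04 in Vhl cells, and the 4 groups did not overlap. Gabarapl1, of the same protein family, rose by 0.47 ± 0.05 in control cells (from 113 ± 6.76 to 156 ± 2.40 CPM) and by 0.22 ± 0.05 in Vhl cells (from 137 ± 1.33 to 159.6 ± 12.5 CPM). The Gabarapl1 rise in Vhl cells did not pass without Vhl AZD8330 library A, where it was 0.10, and 25.2% of its words also stand in 1700101I11Rik, which held at most 30 counts.

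Map1lc3b, Ulk1 and Sqstm1 had few counts and wide errors, and few counts do not show that these genes were barely expressed. Map1lc3b, the LC3 protein most used as an autophagosome marker, stood at 10.9, 10.2 and 9.95 CPM in control DMSO, 23.2, 15.6 and 16.8 in control AZD8330, 6.23, 18.2 and 8.09 in Vhl DMSO and 22.1, 23.1 and 21.5 in Vhl AZD8330. It rose by 0.84 ± 0.30 in control cells and 1.03 ± 0.30 in Vhl cells, and the control call ended without control AZD8330 A (log2 0.65) or without any 1 of the control DMSO libraries (log2 0.81 to 0.88). Ulk1, the kinase that starts autophagy, went from 2.95, 4.17 and 4.24 CPM to 4.08, 10.8 and 7.88 CPM in Vhl cells, and these groups overlapped. Its rise (log2 interval 0.38 to 1.62, adjusted p = 0.0185) ended without Vhl AZD8330 B (log2 0.60) or C or Vhl DMSO A. Sqstm1, the cargo receptor p62, held only 6 to 51 counts in a library of the drug experiment. Its levels were 0.573, 0.804 and 0.429 CPM in control DMSO and 3.24, 0.785 and 1.87 CPM in control AZD8330, which overlapped, and its rise of 1.69 ± 0.59 (adjusted p = 0.0241) ended without control AZD8330 A (log2 1.12) or control DMSO A or C. In Vhl cells Sqstm1 stood at 1.76, 2.87 and 0.756 CPM in DMSO and 0.76, 0.787 and 1.39 CPM in AZD8330 (−0.88 ± 0.56, adjusted p = 0.218). 16.3% of the Sqstm1 words also stand in Mrnip, which held 84 to 204 counts, and how reads were shared between them was not tested.

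**Figure D2:**
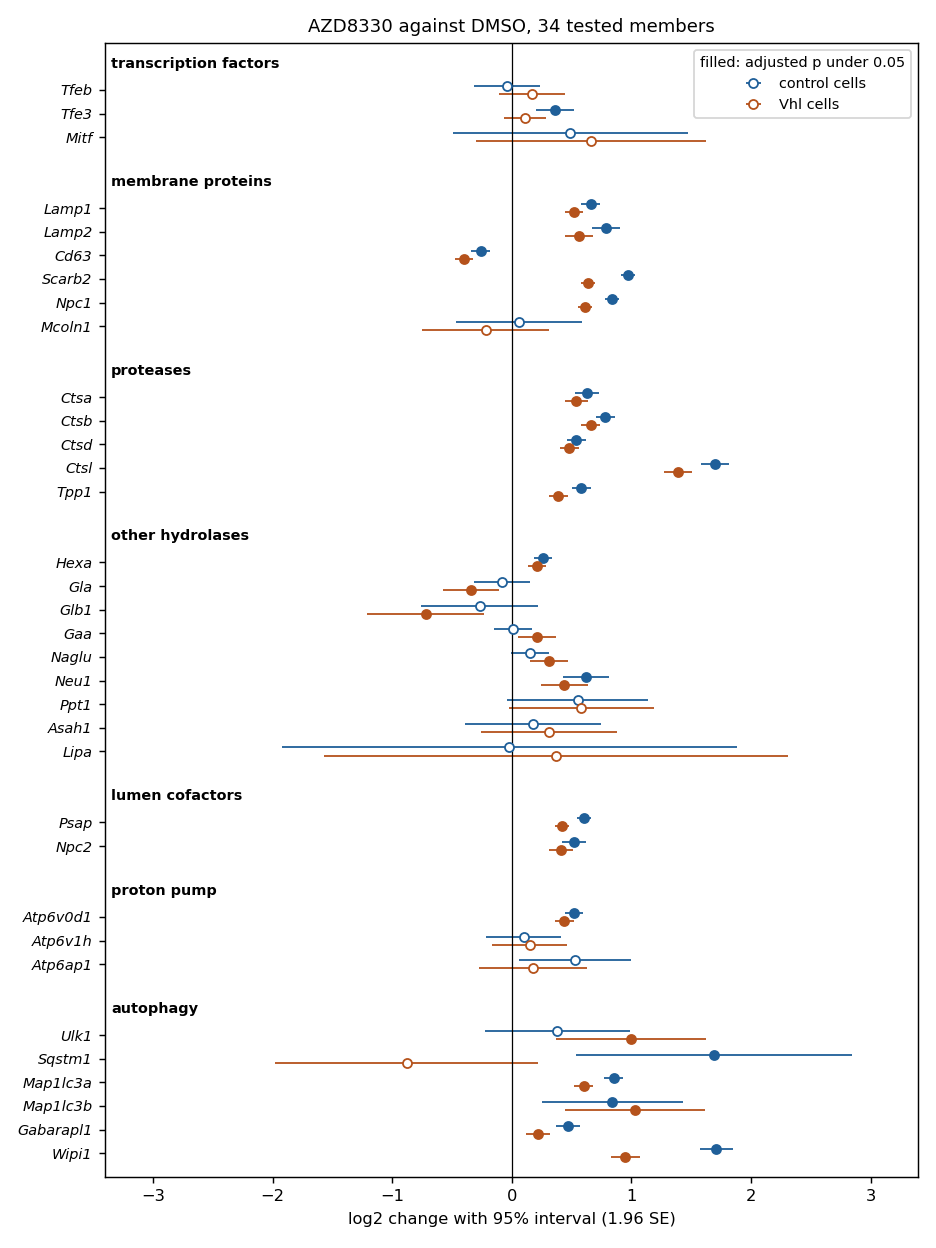
Log2 change with AZD8330 against DMSO for the 34 tested members, by role, in control cells (blue) and Vhl cells (orange), with 95% intervals. Filled points passed the test, 21 in control cells and 24 in Vhl cells, and most of the open points have wide intervals.

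Rises were found among members with and without the promoter motifs. Among members tested and with a promoter window, 3 of the 5 with a CLEAR core rose in control cells under AZD8330 and 14 of the 24 without it rose. For CACGTG the counts were 5 of 10 with it and 12 of 19 without it. Over all tested genes 29.1% rose, and the share of rises among all tested genes with or without a motif was not counted. Classes of this size cannot show whether a motif goes with a rise. The steepest riser, Wipi1, had neither motif in its window, which lies inside the annotated gene, so its annotated 5′ end was not searched. Ctsl had a single CACGTG 236 bases before the start site of its window. Gla with 2 CLEAR cores did not rise in either genotype, while Ctsa, with a CLEAR core on each side of its start site, rose in both. The part of the motifs in the rises was not tested.

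The drug effect was smaller in Vhl cells for 7 members. In the test of the difference of drug effects, Vhl minus control, 7 of 34 members fell and 0 rose, where 4.96% of all tested genes fell and 7.81% rose. All 7 were among the 22 members at 20 CPM or more, with a median standard error of 0.06 against 0.41 below that level. The share of all genes at that level was not counted for this test, so the size of the excess is uncertain. DESeq2 and limma gave 0 larger effects as well, and 0 members had a positive difference at an unadjusted p under 0.05. The median difference over the members was −0.14 against 0.03 over all genes, and 24 of 34 were negative. All 7 had risen with the drug in both genotypes, so the change was a smaller rise and not a fall. Scaling matters for the background here: rises made up 61.2% of all calls with TMM, 52.6% with DESeq2's size factors and 43.8% with total counts, while the members gave 7, 8 and 11 falls and 0 rises.

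Among the 7 that passed, Wipi1 had the widest gap, with drug effects that differed by −0.76 ± 0.09 on the log2 scale (adjusted p = 0.000203). Its Vhl libraries lay above the control libraries in DMSO and overlapped them in AZD8330. For Scarb2 the difference was −0.33 ± 0.05 (adjusted p = 0.00071), and for Ctsl it was −0.31 ± 0.08 (adjusted p = 0.0215). Npc1 differed by −0.23 ± 0.05 (adjusted p = 0.00852) and Map1lc3a by −0.24 ± 0.06 (adjusted p = 0.0213). Psap and Tpp1 had the smallest differences that passed, −0.17 ± 0.04 (adjusted p = 0.0105) and −0.19 ± 0.05 (adjusted p = 0.0355). Under AZD8330 the Vhl libraries lay below the control libraries for Scarb2, Ctsl, Npc1, Psap and Tpp1. For Map1lc3a they lay above. Sqstm1, with few counts, had a wider difference that did not pass (−2.57 ± 0.81, adjusted p = 0.0587). Without Vhl AZD8330 library A 15 members passed, and without the filter on low counts 5. The calls of Tpp1, Psap and Map1lc3a ended without that filter (−0.17, −0.15 and −0.22). The Tpp1 call also ended when any 1 of Vhl DMSO A or C, control AZD8330 A, or control DMSO B or C was left out, and the Map1lc3a call also ended without control DMSO A.

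Genes of MEK output differed in the same libraries. Of 14 tested genes of that list 5 had a difference above 0 that passed and 0 below, for example Dusp6 (0.76 ± 0.07) and Spry1 (0.57 ± 0.05), both inhibitors of the pathway. Dusp6 stood at 20.9 ± 0.376 CPM in control AZD8330 and 32.9 ± 2.16 CPM in Vhl AZD8330. Of the 6 astrocyte markers Aqp4 (−1.01 ± 0.20) and Gja1 (−0.33 ± 0.07) also had smaller drug effects in Vhl cells. Whether these values bear on the lysosomal genes was not tested.

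**Figure D3:**
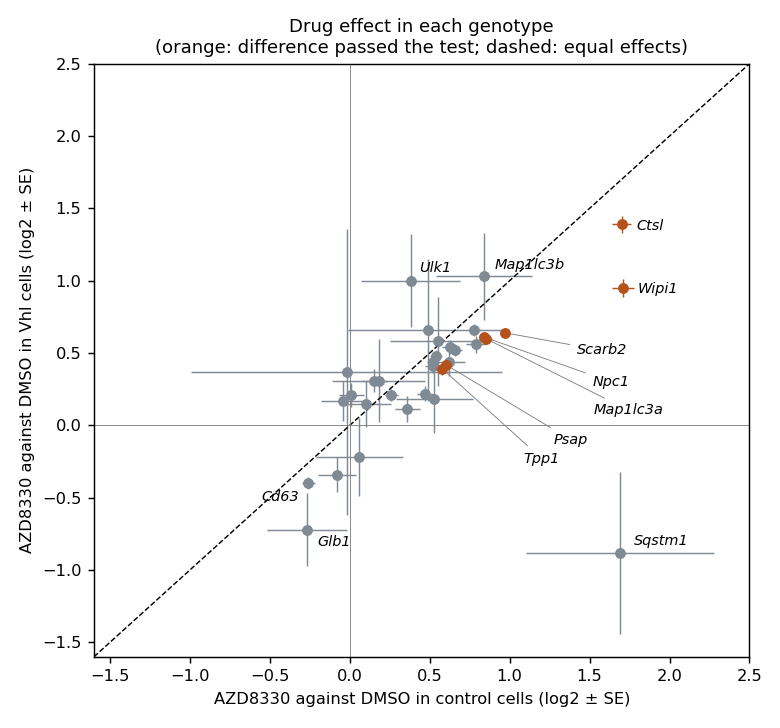
Log2 change with AZD8330 in control cells (x axis) against Vhl cells (y axis) for the 34 tested members, with standard errors, and a dashed line where both effects are equal. The 7 members whose difference passed (orange) lie below the line, with Wipi1 at 1.71 and 0.95 farthest from it among them.

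In DMSO the genotypes differed in 10 members, in both directions. In Vhl against control cells 6 of 34 members rose and 4 fell, where 13.8% of all tested genes rose and 18.5% fell, and the median was 0.02 against −0.03. On that background the members' counts do not stand out. Rises made up 42.6% of all calls with TMM but 56.8% when libraries were scaled by total counts, which left the 6 rises and 2 falls of members. Of the 10 OPC markers 8 rose and 1 fell, of the 6 astrocyte markers 1 rose and 2 fell, and of 5 tested neuronal markers 2 rose, and their part was not tested. All 12 tested HIF targets rose in the same comparison, led by Bnip3, a mitophagy receptor, with 5.04 ± 0.06. The rises were Wipi1, Map1lc3a and Gabarapl1 of autophagy, Ctsa, Scarb2 and Atp6ap1, and the falls Cd63, Npc1, Ctsb and Naglu.

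Of the 6 that rose in DMSO, Wipi1 had the largest change, from 30.9 ± 2.52 to 55.5 ± 2.97 CPM (1.80-fold, log2 0.85 ± 0.07, adjusted p = 1.22e-06). Map1lc3a was 1.45-fold higher (log2 0.54 ± 0.04, adjusted p = 1.64e-06) and Gabarapl1 1.21-fold higher (adjusted p = 0.00175). No library of the control group reached the lowest Vhl library for these 3. Ctsa was 1.36-fold higher in Vhl cells (log2 0.44 ± 0.05, adjusted p = 3.85e-05), again without overlap. The rise of Scarb2 was small (log2 0.13 ± 0.03, adjusted p = 0.0082) and did not pass without the filter on low counts. Atp6ap1 stood at 9.86, 16.9 and 9.30 CPM in control and 16.6, 19.1 and 22.5 CPM in Vhl DMSO libraries, which overlapped, and its call (log2 0.69 ± 0.24, adjusted p = 0.0436) ended without control DMSO A or C or Vhl DMSO B or C and when only the groups compared were fitted. Of the 6 that rose, Ctsa and Atp6ap1 held ACGTG in a promoter window, Scarb2, Gabarapl1 and Wipi1 did not, and Map1lc3a had no window. The windows of Scarb2 and Wipi1 lie inside the annotated gene, and GCGTG, another form of the HIF core, was not searched. A missing match therefore does not show that a HIF core was absent.

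The 4 falls in DMSO were small. Cd63 fell by 0.27 ± 0.04 (adjusted p = 0.000375) and Npc1 by 0.19 ± 0.03 (adjusted p = 0.000954). Ctsb (−0.15 ± 0.04) and Naglu (−0.28 ± 0.08) fell too, but neither passed when libraries were scaled by total counts or when only the groups compared were fitted, and the Ctsb call ended without control DMSO B and the Naglu call without control DMSO C. Mcoln1 and Sqstm1 had larger differences that did not pass (0.54 ± 0.27, adjusted p = 0.156, and 1.56 ± 0.59, adjusted p = 0.0607). Tfeb did not differ beyond its spread, with 10.7 ± 0.435 CPM in control and 10.8 ± 2.07 CPM in Vhl libraries and an interval of −0.25 to 0.30.

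Under AZD8330 5 membrane proteins and 4 proteases were lower in Vhl than in control cells, and the protease Ctsa was higher. Of 34 members 12 fell and 2 rose, where 14% of all tested genes fell and 16% rose, and the median was −0.11 against 0.01 over all genes. Of the 22 members at 20 CPM or more 11 fell, where 21.1% of the genes at that level fell. Rises made up 53.3% of all calls with TMM and 43.7% with DESeq2's size factors, with 13 falls and 2 rises of members in the latter. In the same comparison 8 of 10 OPC markers rose and 1 fell, 1 of 6 astrocyte markers rose and 3 fell (median −0.30), and 3 of 5 tested neuronal markers rose and 1 fell. Of 5 tested oligodendrocyte markers 0 rose and 1 fell, with a median of −0.90. The part of these markers in the members' falls was not tested. All 14 calls of members passed in each of the 13 alternatives run.

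The falls covered 5 of 6 membrane proteins and 4 of 5 proteases. Npc1 was 0.748 times the control level (log2 −0.42 ± 0.03, adjusted p = 9.6e-07) and Cd63 0.75 times (log2 −0.42 ± 0.04, adjusted p = 1.18e-05). Lamp2 fell by 0.37 ± 0.06 (adjusted p = 0.000554), Lamp1 by 0.20 ± 0.03 (adjusted p = 0.00085) and Scarb2 by 0.19 ± 0.03 (adjusted p = 0.000509), so Scarb2 was higher than control in DMSO and lower in AZD8330. Among proteases Ctsb, Tpp1, Ctsl and Ctsd fell by 0.27, 0.27, 0.23 and 0.12, each with a standard error of 0.04 or 0.05. The remaining falls were Gla (−0.46 ± 0.12), Tfe3 (−0.30 ± 0.08) and Psap (−0.16 ± 0.03). Tfe3 stood at 60.4, 68.4 and 63.5 CPM in control and 59.2, 50.4 and 46.0 CPM in Vhl AZD8330 libraries, without overlap. The rises were Ctsa (0.35 ± 0.05, adjusted p = 0.000189) and Map1lc3a (0.29 ± 0.04, adjusted p = 0.000151), both of which had also risen in DMSO. Wipi1, the leading rise in DMSO, did not pass in AZD8330 (log2 0.09 ± 0.06, interval −0.03 to 0.21).

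The genotype effects in DMSO and AZD8330 come from separate libraries, and their difference, which uses all 12, is the test of drug effects given above. Side by side, 3 members fell in both media (Cd63, Npc1 and Ctsb), 2 rose in both (Ctsa and Map1lc3a), 8 fell under AZD8330 and did not pass in DMSO, and 16 passed in neither. Wipi1, Gabarapl1 and Atp6ap1 rose and Naglu fell in DMSO without passing in AZD8330, and Scarb2 changed sign. Of the 8, the difference itself passed for Ctsl, Tpp1 and Psap and did not for Lamp1, Lamp2, Ctsd, Gla and Tfe3.

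**Figure D4:**
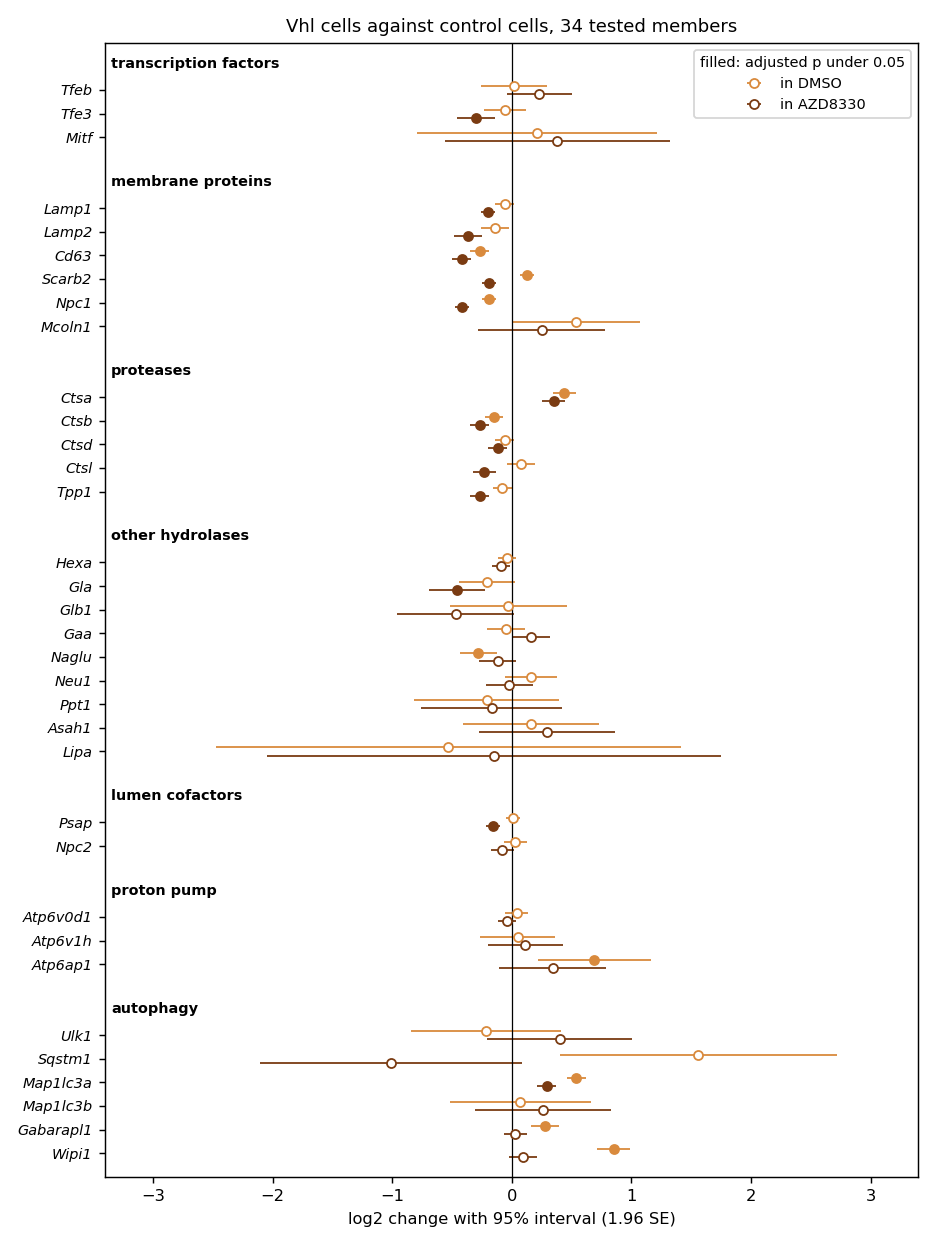
Log2 change in Vhl against control cells for the 34 tested members, by role, in DMSO (light) and AZD8330 (dark), with 95% intervals. Filled points passed the test, 10 in DMSO and 14 in AZD8330, and membrane proteins and proteases lie mostly left of 0 in AZD8330 apart from Ctsa.

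In untreated cells no member passed. Vhl against control cells gave 0 rises and 0 falls among 36 tested members with edgeR's quasi-likelihood test, where 0.0147% of all tested genes rose and 0% fell. DESeq2 and limma called 0 members as well. At an unadjusted p under 0.05 stood 3 members, Lamp2, Scarb2 and Asah1, where 9.34% of all tested genes did. The smallest adjusted p was 0.4. The median change was −0.12 against 0.05 over all genes, and 24 of 36 were negative. Libraries of the untreated experiment spread more within groups (common dispersion 0.144) than those of the drug experiment (0.0161), so a missed call does not show that levels were equal. Without Vhl library A 3.24% of all tested genes were called, and without control library A 0%.

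Untreated control libraries A to C held 321, 278 and 293 CPM of Lamp2, and the Vhl libraries 205, 224 and 151 CPM (log2 −0.62 ± 0.20, adjusted p = 0.401). Scarb2 stood at 364, 347 and 341 and 233, 288 and 254 CPM (log2 −0.44 ± 0.17, adjusted p = 0.476), and Npc1 at 381, 321 and 315 and 236, 269 and 295 CPM (log2 −0.34 ± 0.18). Asah1, acid ceramidase, stood at 7.46, 9.23 and 6.59 and 2.60, 4.83 and 3.62 CPM (log2 −1.08 ± 0.34). The Vhl libraries lay below the control libraries for these genes and for Atp6v1h (log2 −0.66 ± 0.37), and above them for Ppt1 (log2 0.45 ± 0.29). None of these differences passed. These were the 6 of 36 tested members whose groups did not overlap. The share of all tested genes without overlap was not counted, so the 6 are no result about the members. Wipi1 stood at 77.2, 69.8 and 70.7 CPM in control and 63.9, 109.6 and 128 CPM in Vhl libraries (log2 0.47 ± 0.26, interval −0.05 to 0.99), where Vhl B and C lay above the controls and Vhl A below them. Ulk1 stood at 11.4, 7.30 and 7.24 CPM in control and 4.73, 19.3 and 33.8 CPM in Vhl libraries (log2 1.15 ± 0.64, adjusted p = 0.646), with Vhl B and C above the controls and Vhl A below them. Tfeb held 12.8, 9.29 and 7.70 CPM in control and 11.8, 8.01 and 4.26 CPM in Vhl libraries, which overlapped (log2 −0.30 ± 0.42, interval −1.12 to 0.51). Map1lc3a differed by −0.13 ± 0.34 (interval −0.80 to 0.53) and Ctsa by 0.21 ± 0.17 (interval −0.12 to 0.54), and both intervals include 0.

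Vhl library A decided several values. Cd63 stood at 235, 301 and 263 CPM in control and 344, 119.9 and 119 CPM in Vhl libraries, and Npc2 at 204, 279 and 257 and 267, 122 and 100.3 CPM. In both genes Vhl A lay within or above the control range, and B and C lay far below it. Ctsb (332, 333 and 326 against 373, 229.8 and 198 CPM) and Ctsd (341, 346 and 332 against 386, 239 and 246 CPM) had the same arrangement. Without Vhl A, Cd63 fell by 1.16 ± 0.16 (adjusted p = 0.0196) and Npc2 by 1.15 ± 0.19 (adjusted p = 0.0368), with 3.24% of all tested genes called. Without both A libraries Cd63 fell by 1.24 ± 0.12 and Npc2 by 1.27 ± 0.14, with 4.47% of all tested genes called, and no other member passed. The 6 astrocyte markers summed to between 911 and 1230 CPM in the untreated control and between 579 and 873 CPM in the Vhl libraries, with 5 of 6 changes negative and a median of −0.87, and 0 passed. Markers of oligodendrocytes summed to between 26.9 and 198 CPM and between 16.3 and 45.5 CPM, with 6 of 6 tested changes negative and a median of −1.83, and 0 passed. Neuronal markers summed to between 451 and 467 CPM and between 345 and 561 CPM. Genes listed as HIF targets summed to between 364 and 410 CPM in untreated control and between 1300 and 4640 CPM in untreated Vhl libraries. Genes of MEK output summed to between 1080 and 1720 CPM and between 1440 and 3090 CPM. The untreated Vhl libraries were thus unlike each other in these lists too. The part of these markers and lists in the values of membrane proteins and of Cd63 and Npc2 was not tested.

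**Figure D5:**
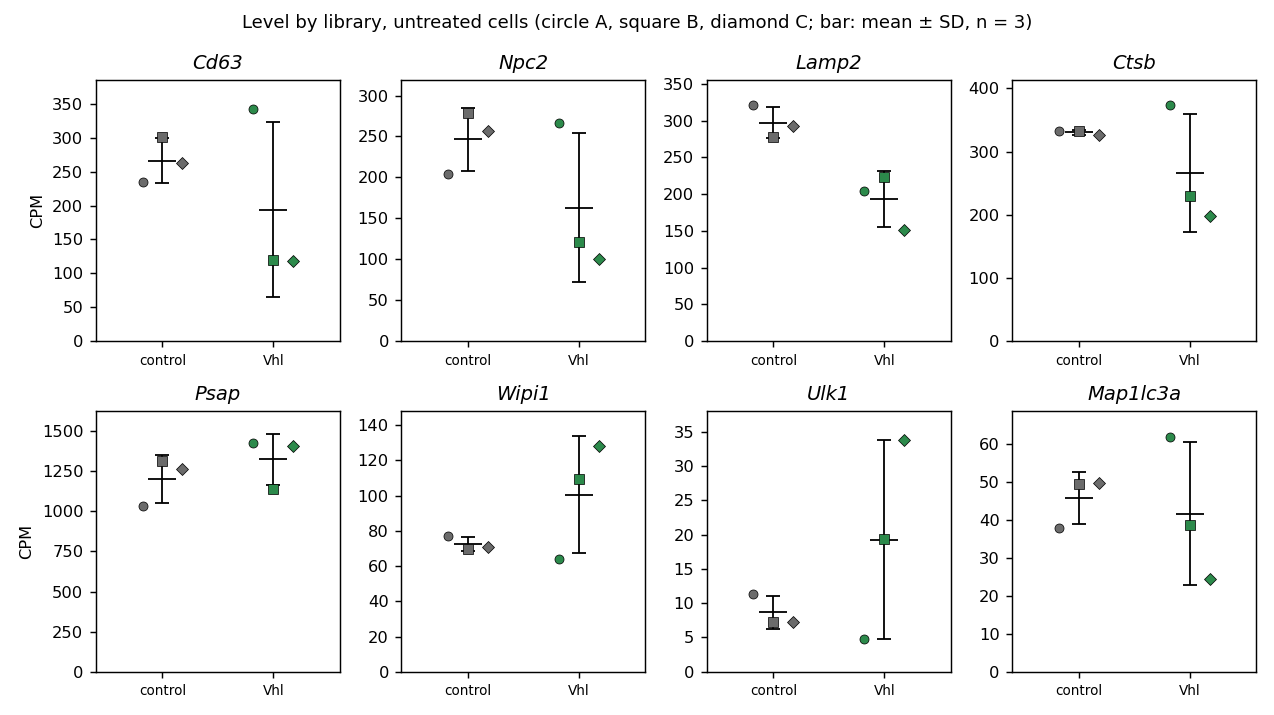
CPM of 8 members in the 6 untreated libraries, with a marker for each library, a horizontal bar for the mean and whiskers for the SD (n = 3). Vhl A (circle) stands apart from Vhl B and C for Cd63, Npc2 and Ctsb, while for Lamp2 the Vhl libraries lie together below the controls.

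Other genes of the same pathways, taken from lists by function, were compared in the same way. With AZD8330 in control cells 20 of 35 tested further lysosomal proteins rose and 4 fell, and 8 of 14 further V-ATPase subunits rose and 0 fell, where 29.1% of all tested genes rose and 31.7% fell. Gm2a, the activator of ganglioside breakdown, rose by 1.04 ± 0.03, Smpd1, acid sphingomyelinase, by 0.85 ± 0.04 and Sort1, a sorting receptor, by 0.73 ± 0.04. Of the pump subunits Atp6ap2 rose by 0.54 ± 0.06, Atp6v1b2 by 0.36 ± 0.04 and Atp6v1d by 0.27 ± 0.04. Of 38 further autophagy genes 22 rose and 5 fell, among them Ulk2, a relative of Ulk1 (0.98 ± 0.05), Tecpr1, a tether of autophagosomes and lysosomes (0.84 ± 0.06), and Atg12 of the conjugation system (0.55 ± 0.05). In Vhl cells the counts were 16 rises and 3 falls of lysosomal proteins, 9 and 0 of pump subunits, and 16 and 1 of autophagy genes, where 25.8% of all tested genes rose and 25.6% fell. Nbr1, a cargo receptor related to p62, rose there by 0.34 ± 0.04. The difference of drug effects passed as negative for 7 of the 35 lysosomal proteins, 0 of 14 pump subunits and 3 of 38 autophagy genes. Over all tested genes 4.96% passed as negative and 7.81% as positive, so the counts of pump subunits and autophagy genes do not stand out. Gm2a (−0.27 ± 0.04), Laptm4a (−0.30 ± 0.05) and Ids (−0.29 ± 0.06) led the lysosomal proteins, and the autophagy genes were Atg13, Rb1cc1 and Tecpr1. None of the 3 lists held a gene with a positive difference that passed.

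Of 24 tested genes that control TFEB, 4 rose and 6 fell with AZD8330 in control cells, where 29.1% of all tested genes rose and 31.7% fell. In Vhl cells 2 rose and 8 fell, where 25.8% rose and 25.6% fell. The medians were 0.02 and −0.07, and on that background these counts do not stand out. Rragd, a Rag GTPase that recruits TFEB to the lysosome and is itself known as a TFEB target, stood at 43.8, 41.9 and 44.6 CPM in control DMSO and 55.7, 56.4 and 58.3 CPM in control AZD8330 (0.39 ± 0.05, adjusted p = 1.47e-05). In Vhl cells Rragd stood at 87.6, 92.2 and 84.2 CPM in DMSO and 104, 102 and 98.01 CPM in AZD8330 (0.20 ± 0.05). It was therefore higher in Vhl than in control cells by 1.02 ± 0.05 in DMSO and 0.83 ± 0.05 in AZD8330, without overlap. Fnip2, a partner of folliculin, fell by 0.47 ± 0.06 with the drug in control cells, and Map2k2, which encodes MEK2, the drug's own target, fell by 0.45 ± 0.05.

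In Vhl against control cells in DMSO 4 of the 35 further lysosomal proteins rose and 9 fell, 0 of 14 pump subunits rose and 1 fell, and 7 of 38 autophagy genes rose and 3 fell. Over all tested genes 13.8% rose and 18.5% fell, and against those shares the counts are no result about the lists. Ctsf, a cysteine protease, rose from 25.9, 26.8 and 28.8 CPM in control DMSO to 68.8, 71.7 and 65.7 CPM in Vhl DMSO (1.34 ± 0.05, adjusted p = 2.49e-09), and 53.9 ± 1.27 and 115 ± 3.59 CPM in AZD8330 (1.09 ± 0.05). Sort1 fell by 0.30 ± 0.04. Atg2b, a lipid transfer protein (0.41 ± 0.05), Ulk2 (0.36 ± 0.05) and Atg9a, a scramblase (0.96 ± 0.15), rose. Under AZD8330 the counts were 2 rises and 8 falls, 1 and 4, and 6 and 8, where 16% of all tested genes rose and 14% fell, with Gm2a (−0.45 ± 0.03), Sort1 (−0.53 ± 0.04) and Atp6ap2 (−0.45 ± 0.06) among the falls. In untreated cells 0 of the 35, 14, 38 and 24 genes of these 4 lists passed edgeR's quasi-likelihood test, and 4, 0, 3 and 2 had an unadjusted p under 0.05, where 9.34% of all tested genes did.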

How the data were processed

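RNA from 18 libraries was sequenced. The authors deposited 2 tables of estimated counts per gene, made with Salmon 0.14.1 on mouse build mm10, per the submitters' processing notes. Their names speak of TPM, but the deposited values are estimated counts, since column totals differ and 57.7% and 58.8% of values are whole within 0.001. No source used here says how transcripts were combined to genes or whether counting used strand. The authors' mean columns were not used, because the 1 named VHL equals the mean of control B, control C and Vhl A.

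Counts were rounded and tested with edgeR 4.0.16 (R 4.3.3), TMM scaling, quasi-likelihood F-tests and Benjamini-Hochberg adjustment, after removal of genes averaging under 1 CPM. The 2 tables were fitted separately, and the 4 drug groups in a single fit without a term for the letters. DESeq2 1.42.0 and limma 3.58.1 on log2(CPM + 1) were alternatives, beside other scalings, no filter, a replicate block, fits of only the groups compared and leaving out each library. The script was tested on simulated data. Words of 31 bases shared between annotated transcripts were counted from GENCODE M21. Figures were drawn with matplotlib 3.10.9 under Python 3.11.15.

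All 37 members could be named. From each further list of the pathway up to 3 called genes of smallest p were named for a comparison, up to 4 from the lists of MEK output and HIF targets, and the cell type markers and Vhl as checks. The members and lists were chosen with earlier results of these data known. Some genes of these lists are not reported here.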

Additional observations from a re-analysis of the deposited data

Results flagged for a closer look

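In 7 members the AZD8330 effect differed between genotypes by the test of the difference itself, and in all 7 the rise was smaller in Vhl than in control cells. The differences, Vhl minus control on the log2 scale, were −0.76 for Wipi1, −0.33 for Scarb2, −0.31 for Ctsl, −0.24 for Map1lc3a, −0.23 for Npc1, −0.19 for Tpp1 and −0.17 for Psap. Wipi1, Map1lc3a and Scarb2 were higher in Vhl than in control cells in DMSO, and Npc1 was lower, and these values come from the same DMSO libraries as the drug effects.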

How the results depend on the processing

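No change of sign of a called value was found. Among members, untreated falls went from 0 to 2 without Vhl library A and to 2 without both A libraries. Falls in DMSO went from 4 to 2 with scaling by total counts and to 2 when only the groups compared were fitted. With the drug in Vhl cells falls went from 3 to 1 without Vhl DMSO library B or C. Smaller drug effects in Vhl cells went from 7 to 11 with total counts and to 15 without Vhl AZD8330 library A. Leaving out each library in turn gave 0 to 0 rises and 0 to 2 falls in untreated cells, 5 to 6 and 3 to 5 in DMSO, 2 to 2 and 12 to 13 in AZD8330, 18 to 22 and 1 to 1 with the drug in control cells, 18 to 21 and 1 to 3 in Vhl cells, and 0 to 0 and 6 to 15 for the difference. Calls that passed in every alternative run numbered 6 of 10 in DMSO, 14 of 14 in AZD8330, 19 of 21 and 18 of 24 for the drug effects and 4 of 7 for the difference. The cause of these shifts was not tested. No label says what the letters stand for, so the letters were not treated as pairs. Deviations of libraries of the same letter had correlations between −0.08 and 0.05. Between control DMSO and Vhl DMSO all 3 letters matched their own letter best, at correlations of 0.02, 0.04 and 0.05. In the other pairs of groups 0 to 2 of the 3 did. With the letter as a replicate block the rises and falls were 0 and 0, 6 and 5, 2 and 12, 21 and 1, 21 and 3, and 0 and 8, in the same order. Members under 20 CPM had a median standard error of 0.29 in the drug experiment, which limits what could be seen in them.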
